A study of Mus musculus with 6 samples.

Results

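Cep85l, Pln and Mcm9 lie side by side on mouse chromosome 10 and were taken from the deposited expression table by gene name and mouse gene identifier, which gave 3 genes of the 52550 in the table. Cep85l and Pln occupy the same stretch of DNA, because Pln sits inside an intron of Cep85l on the opposite strand, and Mcm9 lies upstream of Cep85l. The genes were picked with their counts in the FLExDUX4 and wild-type totals already known, so the ratios given here describe the genes and are not a test of them.

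Skeletal muscle RNA came from male FLExDUX4 mice and their wild-type littermates, with 3 mice in each group. FLExDUX4 mice are a model of facioscapulohumeral muscular dystrophy (FSHD) and are hemizygous for an inverted human DUX4 transgene with lox sites, placed at the Rosa26 locus, from which DUX4 leaks at a very low level. No Cre is named for either group, so the comparison is of leaky DUX4 against none, and wild-type mice lack the transgene. The sample labels give quadriceps from mice 13 weeks old, whereas the methods of the study give triceps from mice 2 months old. The libraries were QuantSeq 3′ libraries, which start from the poly(A) tail and give about 1 read per transcript whatever its length, so levels of different genes can be compared without a length correction.

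Cep85l encodes centrosomal protein 85-like, a protein of the centrosome that is related to Cep85 and is known for its role in the migration of neurons. Pln encodes phospholamban, a small membrane protein that inhibits SERCA, the pump that returns calcium to the sarcoplasmic reticulum after contraction. Phospholamban works mainly in heart, slow muscle fibers and smooth muscle, and its phosphorylation by protein kinase A or CaM kinase relieves the inhibition of the pump. Mcm9 encodes a relative of the replicative MCM helicase that acts with Mcm8 in the repair of DNA by homologous recombination.

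The positions of the genes, on GRCm38 and in the GENCODE M21 annotation, set which reads could be taken for those of another gene. Cep85l (ENSMUSG00000038594) covers chr10:53273443-53379947 on the minus strand. Pln (ENSMUSG00000038583) covers chr10:53337667-53345987 on the plus strand, within intron 3 of the 12 introns of the longest Cep85l transcript, an intron of 28752 bases at chr10:53319720-53348471. The same intron holds Gm47644, a noncoding gene on the strand of Cep85l, whose exons overlap those of Pln by 1644 bases. A noncoding transcript of Cep85l also ends inside Pln and overlaps an exon of Pln by 141 bases. Mcm9 (ENSMUSG00000058298) covers chr10:53536315-53630439 on the minus strand. Asf1a, a histone chaperone gene, lies on the opposite strand inside intron 8 of the 13 introns of Mcm9, and its exons overlap Mcm9 exons by 1748 bases. The kit keeps the strand of the transcript, but whether strand was used in counting is not given in the sources used here. If it was not, reads of Pln cannot be told apart from those of Gm47644, nor reads of Mcm9 from those of Asf1a, over the shared bases.

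**Figure D1:**
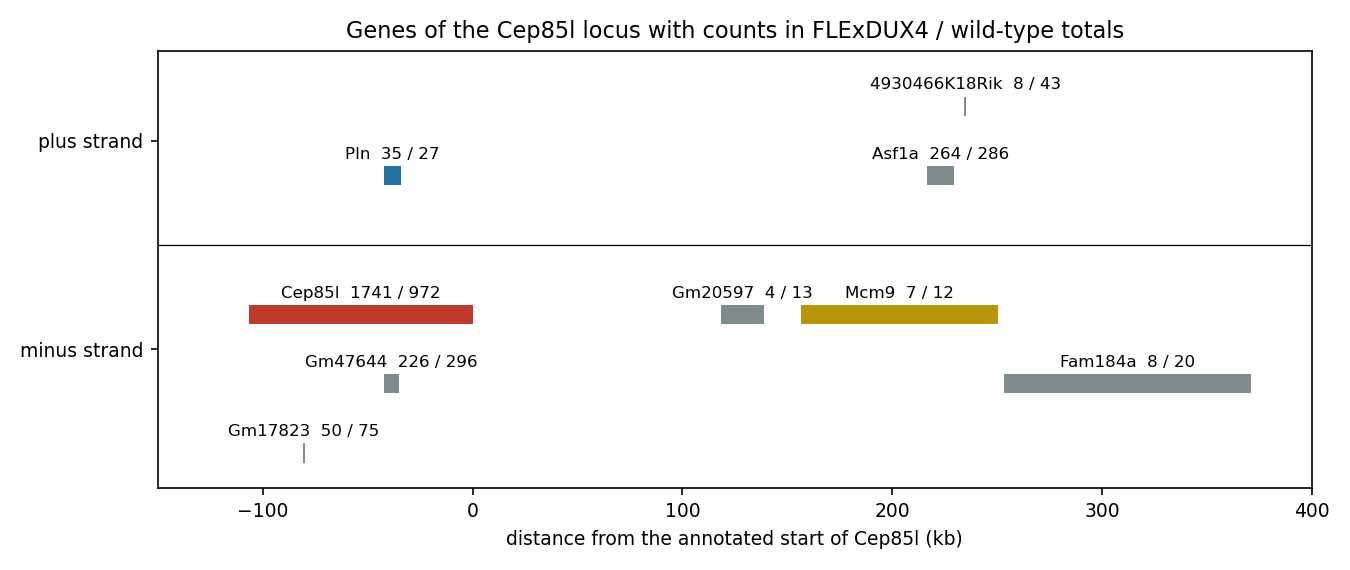
Genes of the Cep85l locus that had at least 10 counts in either group total, with the 3 genes described here drawn whatever their count. The horizontal axis is the distance along the chromosome from the annotated start of Cep85l in kilobases, the rows separate the strands, and the 2 numbers beside each name are the counts in the FLExDUX4 and the wild-type total. Pln and Gm47644 lie within Cep85l, and Cep85l has the most counts of the genes drawn.

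Because a QuantSeq read starts near the poly(A) tail, the 3′ end of each transcript is where its counts come from. The 30 bases that hold the poly(A) signal of the annotated ends of the 3 genes are shown for that reason, 5′ to 3′ on the strand of the gene, with the signal AATAAA in capitals. The first is at the far end of the longest Cep85l transcript, at chr10:53273443-53273472. The second belongs to a coding transcript of Pln, at chr10:53345552-53345581, and the third to the far end of Mcm9, at chr10:53536337-53536366.
Cep85l 3′ end: tttacagagaAATAAAttttttagaaaaat
Pln 3′ end: cccaacAATAAAatcatttttgttgctatt
Mcm9 3′ end: taataaAATAAAacggagaagtttccctgt
After the last base of the signal, up to the annotated end of the transcript, there were 14 bases in Cep85l and 30 bases in Pln. In Mcm9 there were 26 or 40 bases, depending on the transcript. Some coding transcripts of Mcm9 end elsewhere, from position 53608058 to 53608838, with signals of their own. The other annotated coding transcripts of Cep85l, which end at position 53278039, and of Pln had neither AATAAA nor ATTAAA in their last 50 bases. The deposited table gives 1 count per gene, so the counts below cannot be assigned to one end or the other.

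The start regions of Cep85l and Pln are shown because the pair overlaps yet has separate promoters. The RefSeq promoter of Cep85l, 250 bases before to 50 bases after its start, is chr10:53379834-53380133 on the minus strand, and that of Pln is chr10:53337436-53337735 on the plus strand (both GRCm38.p6). Capitals mark the motifs that were found, on either strand.
Cep85l promoter: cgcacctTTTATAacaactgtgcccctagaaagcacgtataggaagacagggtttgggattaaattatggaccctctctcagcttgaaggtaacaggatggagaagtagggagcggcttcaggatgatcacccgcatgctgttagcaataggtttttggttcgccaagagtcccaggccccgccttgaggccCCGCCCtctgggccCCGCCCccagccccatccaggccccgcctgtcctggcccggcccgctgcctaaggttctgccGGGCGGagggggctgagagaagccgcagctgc
Pln promoter: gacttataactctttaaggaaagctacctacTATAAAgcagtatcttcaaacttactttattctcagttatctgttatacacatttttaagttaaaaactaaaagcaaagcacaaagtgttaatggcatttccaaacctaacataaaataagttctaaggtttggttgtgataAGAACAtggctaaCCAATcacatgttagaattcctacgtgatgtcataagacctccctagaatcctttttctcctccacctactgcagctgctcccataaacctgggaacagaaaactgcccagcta
The promoter of Cep85l was 60.7% G or C with 14 CpG dinucleotides, against a median of 52.7% and 7 over 32851 mouse promoters. That of Pln was 36% G or C with 1 CpG, and 4.64% of all promoters had a lower G and C content. The promoter of Mcm9, which is not printed, was at the other extreme with 70% G or C and 35 CpG. The GC box GGGCGG, found in 35.7% of promoters, occurred 3 times in Cep85l, 3 times in Mcm9 and not in Pln. The TATA box letters TATAAA, in 13.6% of promoters, occurred once each in Cep85l and Pln, far from the start in both. CCAAT, in 37.4% of promoters, was found in Pln and Mcm9, and TGTTCT, a hexamer of the glucocorticoid receptor in 19% of promoters, in Pln. CACGTG, the E-box bound by clock factors, was in 7.15% of promoters and in none of the 3. These are matches of letters in windows of 250 bases before to 50 bases after a start, and they show nothing about binding.

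Summed over all genes, FLExDUX4 had 13110125 counts and wild-type 18367364, so an equal level gives fewer counts in FLExDUX4. Totals were scaled by the TMM method over the 13396 genes with enough counts to compare, and levels are given as CPM, the counts per 1e6 scaled counts. Ratios are log2 of FLExDUX4 over wild-type, with 0.5 added to each count, and 95% intervals cover counting error only. No label ties the columns of single libraries to a mouse, and they were not used, so the ratios here carry no replicate check and one mouse can decide a total. Scaling to the spike-in RNAs in place of TMM moved every log2 ratio by -0.28, so positive ratios smaller than that shift turned negative under it. Fewer cells of a type and less RNA per cell cannot be told apart in whole muscle. Skeletal muscle markers (Acta1, Ckm, Myh4, Tnnt3, Mb and Des) were abundant in both totals and summed to 95169 CPM in FLExDUX4 and 95204 CPM in wild-type.

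Cep85l had more counts in the smaller of the totals, 1741 in FLExDUX4 and 972 in wild-type. On the CPM scale its level was 134.2 (interval 128.0 to 140.6) in FLExDUX4 and 52.4 (49.1 to 55.8) in wild-type. The intervals lay far apart, and the log2 ratio was 1.36 (1.24 to 1.47), a 2.56-fold higher level in FLExDUX4 (2.37 to 2.77). In order of level among all genes, Cep85l stood at place 627 in the FLExDUX4 total and at place 1704 in the wild-type total. With spike-in scaling the log2 ratio was 1.08 (0.97 to 1.20), in the same direction.

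Pln was scarce in both totals, with 35 counts in FLExDUX4 and 27 in wild-type. Its level was 2.70 CPM (1.88 to 3.75) in FLExDUX4 and 1.45 CPM (0.959 to 2.12) in wild-type. These intervals overlapped, although the interval of the log2 ratio, 0.88 (0.12 to 1.67), stayed above 0, a 1.85-fold higher level (1.09 to 3.19). With spike-in scaling the log2 ratio of Pln was 0.61 (-0.15 to 1.40), an interval that held 0. Mcm9 was scarcer still, with 7 and 12 counts, or 0.540 CPM (0.217 to 1.11) and 0.647 CPM (0.334 to 1.13). The log2 ratio of Mcm9 was -0.22 (-1.85 to 1.20), an interval so wide that at this depth no difference could be detected.

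Thus Cep85l and Pln were at least 1.5-fold higher in FLExDUX4, as were 13.2% of the 13396 genes compared, whereas 13.5% were at least 1.5-fold lower. Counting intervals lay above 0 for the same pair of genes (for Cep85l alone with spike-in scaling) and for 20.5% of all genes compared, and below 0 for none of the 3 and for 20.6% of all. Since the genes were chosen on these totals, nothing is read from these counts.

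**Figure D2:**
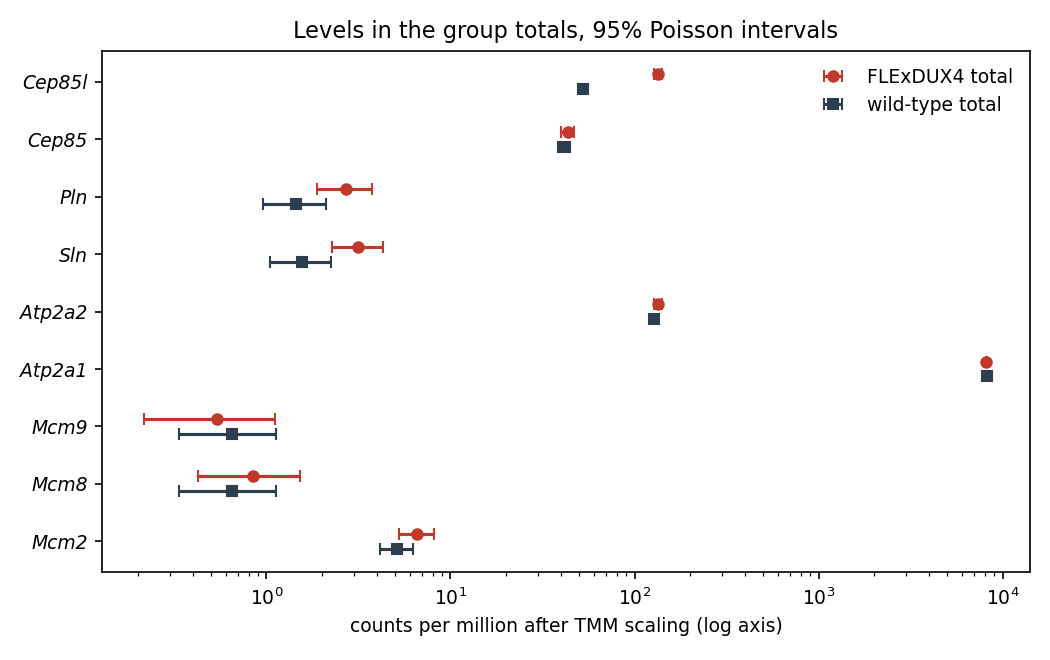
Levels of Cep85l, Pln and Mcm9 and of their paralogs and partners in the 2 group totals, in CPM after TMM scaling on a log axis. Points are FLExDUX4 and squares wild-type, and bars are 95% Poisson intervals that cover counting error only. Cep85l is the gene of those drawn with the largest fold difference between the totals, 134.2 against 52.4.

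The spread of ratios over genes depends on their counts, so each gene is described beside genes whose summed count was within 2 times its own. Since the genes were chosen on the same totals, these places describe the ratios and support nothing about them. Of 1552 such genes for Cep85l, with 1357 to 5421 counts, 0 had a higher ratio. The 5th and 95th percentiles of their log2 ratios were -0.31 and 0.31, the highest was 1.12, and 0.644% were at least 1.5-fold higher. Among all 2727 genes with at least 1000 summed counts, Cep85l had rank 2, behind Foxo1, a forkhead transcription factor of the fasting and atrophy response, at 1.51 (1.34 to 1.68).

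The ratio of Pln was well within the range of genes as scarce as Pln. Of 3285 genes with 31 to 124 summed counts, 490 had a higher ratio and 2795 a lower one, and 24.2% were at least 1.5-fold higher. The 5th and 95th percentiles of these genes were -1.64 and 1.41. Mcm9 lay in the middle of the 1923 genes with 15 to 38 counts, of which 1017 had a higher and 882 a lower ratio, and 34.4% of those genes were at least 1.5-fold higher.

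**Figure D3:**
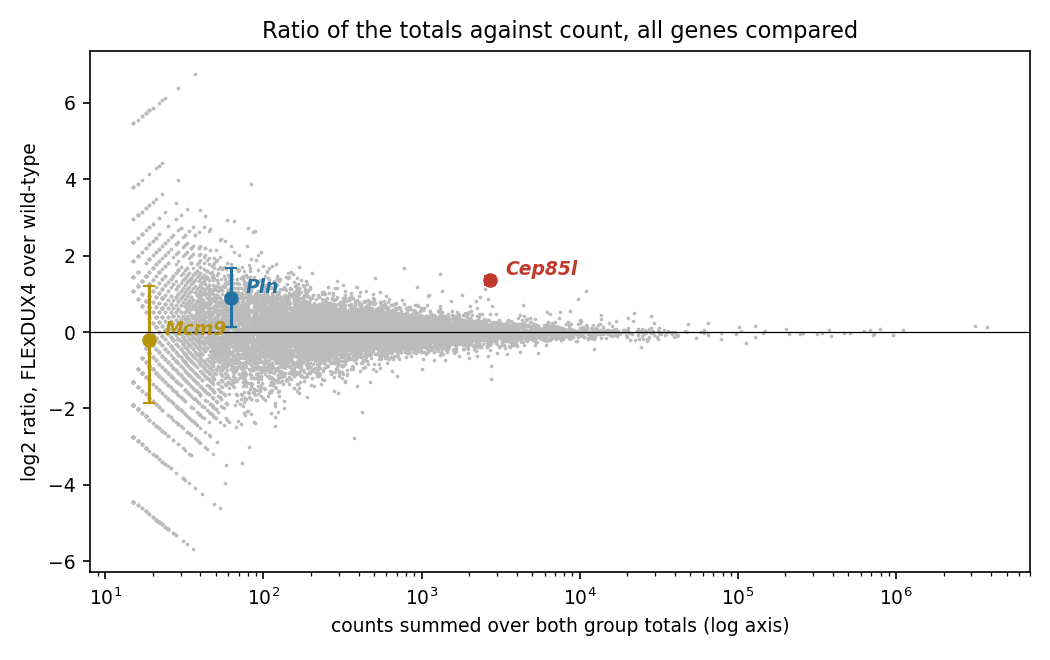
The log2 ratio of the group totals (vertical axis) against the counts summed over both totals (horizontal log axis) for the 13396 genes compared, with Cep85l, Pln and Mcm9 in color and their 95% counting intervals. The cloud of gray points narrows from left to right, and Cep85l at 1.36 stands above it while Pln at 0.88 and Mcm9 at -0.22 lie within it.

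The odds of one gene against another within the same libraries need no scaling. There were 49.7 counts of Cep85l for each count of Pln in FLExDUX4 and 36 in wild-type. The log2 ratio of these odds was 0.47 (-0.32 to 1.24), so whether the gene and the gene nested in it differed in their ratio could not be settled by counting. Cep85l against Mcm9 gave 249 in FLExDUX4 and 81 in wild-type, a log2 odds ratio of 1.62 (0.15 to 3.21). Pln against Mcm9 gave 5 and 2.25, a log2 odds ratio of 1.14 (-0.54 to 2.92).

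Other genes of the neighborhood were read to see whether they shared the higher level of Cep85l. Within 1 Mb of the ends of Cep85l lay 46 other genes, of which 33 had at most 3 counts in both totals and 12 had enough counts to compare. Of these 12 genes, 6 were higher (1 with spike-in scaling) and 6 lower in FLExDUX4, 0 were at least 1.5-fold higher and 4 were at least 1.5-fold lower (13.2% and 13.5% of all genes compared). Their median log2 ratio was -0.01, with a range from -2.72 to 0.40, whereas 49.9% of all genes compared were higher and the median over all of them was 0.00. All 12 point values lay below that of Cep85l, although the interval of the scarce Slc35f1 reached past it. The 4 genes at least 1.5-fold lower were scarce, with 17 to 51 summed counts, where large ratios are more common. Among genes with counts near those of Pln and Mcm9, 24.2% and 34.4% were at least 1.5-fold higher.

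Of the noncoding genes inside Cep85l, 2 had counts, and both had lower odds against Cep85l in FLExDUX4. Gm47644, on the strand of Cep85l and antisense to Pln, had 226 counts in FLExDUX4 and 296 in wild-type, a log2 ratio of 0.13 (-0.13 to 0.38). Cep85l counts per Gm47644 count were 7.70 in FLExDUX4 and 3.28 in wild-type, a log2 odds ratio of 1.23 (0.95 to 1.51). Gm47644 had more counts than Pln in both totals, which matters for Pln because their exons overlap. Gm17823, a processed pseudogene in intron 6 of Cep85l, had 50 and 75 counts (ratio -0.06, -0.61 to 0.47). An antisense gene inside Cep85l, Gm19395, and Gm47641, which overlaps the start of Cep85l on the other strand, had 0 counts in both totals.

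On the side of Mcm9, Asf1a had 264 and 286 counts and a log2 ratio of 0.40 (0.15 to 0.65), the highest of the neighbors. Mcm9, in which Asf1a lies, went the other way in its point value, but its interval of -1.85 to 1.20 held the ratio of Asf1a. Gm20597, between Cep85l and Mcm9, had 4 and 13 counts (-1.07, -3.26 to 0.51), and 4930466K18Rik, within Mcm9, had 8 and 43 (-1.84, -3.21 to -0.80). Beyond Mcm9, Fam184a had 8 and 20 counts (-0.75, -2.20 to 0.44) and Man1a, a mannosidase of the Golgi, 188 and 243 (0.15, -0.14 to 0.43). Of these genes, Asf1a alone had an interval above 0, as had 20.5% of all genes compared, and with spike-in scaling its interval held 0 (-0.12 to 0.37).

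On the other side of Cep85l, Nus1, a subunit of the enzyme that makes dolichol, had 285 and 338 counts and a log2 ratio of 0.27 (0.04 to 0.50), which spike-in scaling took just below 0. Gopc, a Golgi scaffold protein, had 178 and 251 counts (0.02, -0.26 to 0.30). Nepn, a secreted proteoglycan gene, had 4 and 42 counts and the lowest ratio, -2.72 (-4.82 to -1.41). Slc35f1 had 9 and 12 counts (0.12, -1.32 to 1.47) and Gm47621 8 and 12 (-0.04, -1.56 to 1.34). Measured against each of the 12 neighbors in turn, Cep85l had the higher odds in FLExDUX4 with all 12, from a log2 odds ratio of 0.96 (0.68 to 1.23) against Asf1a to 4.23 (2.76 to 6.18) against Nepn. For Slc35f1 alone the interval of these odds, -0.12 to 2.69, held 0. Cep85l was chosen on these same totals, so higher odds were likely against any genes and test nothing about the neighborhood.

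**Figure D4:**
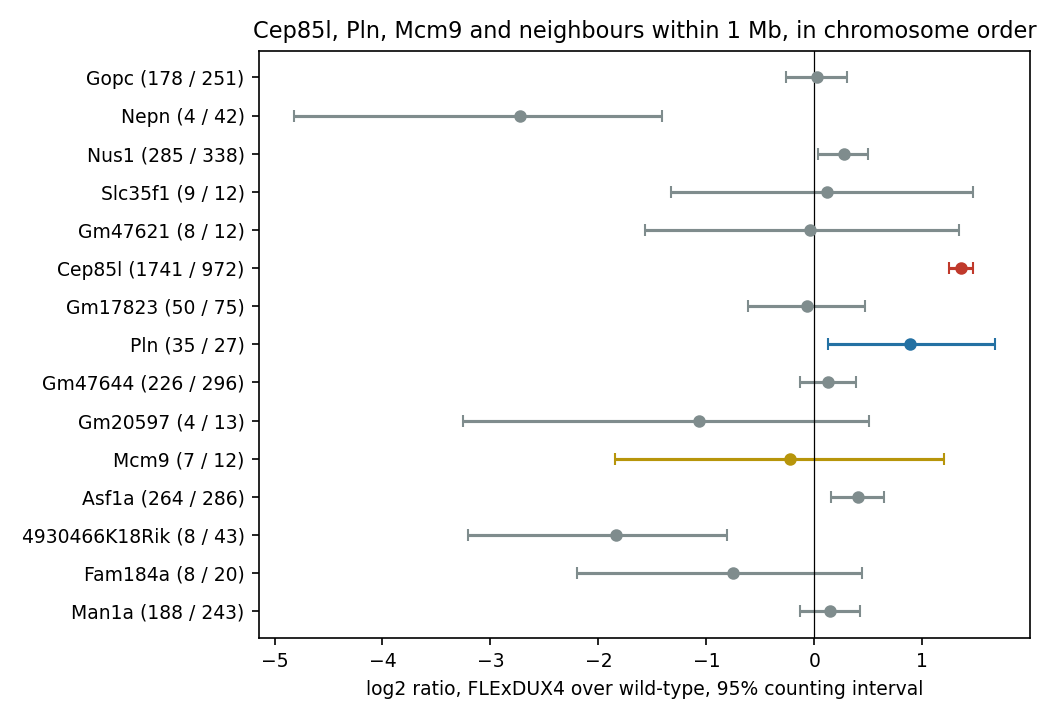
The log2 ratio of FLExDUX4 over wild-type with its 95% counting interval for Cep85l, Pln, Mcm9 and the 12 compared neighbors within 1 Mb, in chromosome order from top to bottom, with the FLExDUX4 and wild-type counts in parentheses. Cep85l at 1.36 lies to the right of every other gene drawn, Pln at 0.88 is next, and Asf1a at 0.40 is the next.

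For Cep85l, the closest relative and other centrosome genes were read next. Cep85, its paralog, had 563 counts in FLExDUX4 and 767 in wild-type, a log2 ratio of 0.07 (-0.09 to 0.23). There were 3.09 counts of Cep85l for each count of Cep85 in FLExDUX4 and 1.27 in wild-type, a log2 odds ratio of 1.29 (1.09 to 1.48). In wild-type muscle Cep85l was thus somewhat above Cep85, at 52.4 against 41.3 CPM. The gap was larger in FLExDUX4 muscle, at 134.2 against 43.4 CPM. Plk4 and Stil, which drive the duplication of centrioles, were close to absent, with 8 and 4 counts for Plk4 and 3 and 0 for Stil.

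Of 18 centrosome and centriole genes, 15 could be compared and 2 had at most 3 counts in both totals. Among the 15, 8 were higher (5 with spike-in scaling) and 7 lower, 2 were at least 1.5-fold higher and 1 at least 1.5-fold lower (13.2% and 13.5% of all genes compared), with a median of 0.07. The highest were Cep135 at 0.75 (0.15 to 1.37) and Cep192 at 0.74 (0.06 to 1.44), which build centrioles and the matrix around them. The lowest were Cenpj, a centriole length factor with 20 and 115 counts, at -1.98 (-2.77 to -1.31), and Nin, a microtubule anchor, at -0.53 (-0.82 to -0.25). Akap9, with the most counts of the list (2296 and 3888), stood at -0.24 (-0.32 to -0.17). All 15 point values lay below that of Cep85l, although the intervals of Cep135 and Cep192 reached past it.

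For Pln, the pump it inhibits and the other small regulators of that pump were read. Atp2a2, the pump of slow fibers and heart on which phospholamban acts, had 1742 counts in FLExDUX4 and 2368 in wild-type, a log2 ratio of 0.07 (-0.02 to 0.16). Atp2a1, the pump of fast fibers, was far more abundant with 105484 and 153070 counts and a ratio of -0.02 (-0.03 to -0.01). Sarcolipin (Sln), a relative of phospholamban, was as scarce as Pln with 41 and 29 counts, at 1.01 (0.29 to 1.75). Pln was thus a rare transcript beside both pumps.

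The counts of Pln per count of Atp2a2 were 0.0201 in FLExDUX4 and 0.0114 in wild-type, a log2 odds ratio of 0.82 (0.05 to 1.60). Against Sln, the odds of Pln were 0.854 and 0.931, a log2 odds ratio of -0.12 (-1.21 to 0.96), an interval that held 0. Myoregulin (Mrln), the abundant small inhibitor of fast fibers, had 1443 and 1795 counts and a ratio of 0.20 (0.10 to 0.30). Atp2a3, a pump of nonmuscle cells, had 51 and 38 counts and a ratio of 0.94 (0.31 to 1.59). Of the 5 genes of this list, 4 were higher (2 with spike-in scaling) and 1 lower, 2 were at least 1.5-fold higher, and the median was 0.20 (-0.07 with spike-in scaling). Both of those, Sln and Atp2a3, had counts in the range of Pln, where 24.2% of genes were at least 1.5-fold higher, against 13.2% of all genes compared.

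Among 16 kinases, phosphatases and partners of phospholamban, 10 were higher (5 with spike-in scaling) and 6 lower, with a median of 0.01 (-0.26 with spike-in scaling). Those at least 1.5-fold higher, 2 of 16 against 13.2% of all genes compared, were Ppp1cc, a catalytic subunit of protein phosphatase 1, with 41 and 26 counts at 1.16 (0.43 to 1.94), and Hax1, a binding partner of phospholamban, with 47 and 30 counts at 1.16 (0.47 to 1.88). Both were as scarce as Pln. The lowest were Prkacb, a catalytic subunit of protein kinase A, at -0.32 (-0.48 to -0.16), and Camk2g, a CaM kinase subunit, at -0.23 (-0.34 to -0.11). Hspb6, the small heat shock protein with the most counts here (11434 and 16304), stood at 0.00 (-0.03 to 0.04).

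Calcium release and storage genes were 5 higher (1 with spike-in scaling) and 13 lower of 18, with a median of -0.08, 0 at least 1.5-fold higher and 1 at least 1.5-fold lower (13.2% and 13.5% of all genes compared). Orai1, the store-operated calcium channel, was the highest at 0.34 (0.13 to 0.55), and Asph and Jph2, proteins of the junctional membrane, were the lowest with at least 60 summed counts, at -0.24 (-0.30 to -0.18) and -0.19 (-0.27 to -0.11). Jsrp1 followed Orai1 at 0.06. Parvalbumin (Pvalb), the calcium buffer of fast fibers, had the most counts, 104162 and 150620, and a ratio of -0.02. Ryr3, a release channel with 2 and 21 counts, was the one at least 1.5-fold lower, at -2.59 (-6.01 to -0.84). Apart from Ryr3, all ratios of this list were thus closer to 0 than that of Pln. These genes also had far more counts than Pln, and large ratios are rarer at high counts. Among genes with counts near those of Cep85l, 0.644% were at least 1.5-fold higher.

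Since phospholamban belongs to slow fibers, fiber type was read beside Pln. Of 10 slow fiber genes, 3 were higher (1 with spike-in scaling) and 7 lower, with a median of -0.10. Csrp3, the muscle LIM protein, was the exception with 1047 and 765 counts at 0.97 (0.83 to 1.11), followed by Atp2a2 at 0.07 (-0.02 to 0.16). Myl2 at -0.25 (-0.34 to -0.15) and Myl3, with the most counts of the list (4441 and 7084), at -0.16 (-0.21 to -0.10) were the lowest.

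Of 12 fast fiber genes, 2 were higher (0 with spike-in scaling) and 10 lower, with a median of -0.03. They ranged from Myh1 at -0.19 (-0.21 to -0.17) and Tnnc2 at -0.10 (-0.11 to -0.09) to Myl1 at 0.07 (0.06 to 0.08) and Actn3 at 0.12 (0.11 to 0.14), and Myh4 had the most counts (384762 and 575807) at -0.07. The part of fiber type in the level of Pln was not tested.

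Heart and smooth muscle also express Pln, and their markers were read in the same totals. Of the heart markers, Nppa, Nppb and Myl7 had at most 3 counts in both totals, Tnni3 had 4 in FLExDUX4 and 0 in wild-type, Myh6 had 13 and 19, and Tnnt2 had 42 and 53. Ryr2, the calcium release channel of heart, had 14 and 3 counts, a log2 ratio of 2.57 (0.90 to 5.18). Myh6 stood at -0.01 (-1.17 to 1.06) and Tnnt2 at 0.18 (-0.44 to 0.79). Among genes with 15 to 38 summed counts, the range of Ryr2, 34.4% were at least 1.5-fold higher. Of 6 smooth muscle markers, 5 were higher and 1 lower, with Myh11 at 0.02 and Lmod1 at 0.08 turning negative under spike-in scaling, and they summed to 140.1 and 136.8 CPM. Smtn (smoothelin), the most abundant of them with 686 and 1237 counts, was the lower one at -0.33 (-0.47 to -0.20). Acta2, smooth muscle actin, with 592 and 651 counts stood at 0.38 (0.22 to 0.54), and Tagln, with 186 and 189, at 0.49 (0.19 to 0.79). Cnn1 (calponin), the scarcest, had 30 and 12 counts at 1.80 (0.83 to 2.94). Its counts were in the range of Pln, where 24.2% of genes were at least 1.5-fold higher. The part of either cell type in the level of Pln was not tested.

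For Mcm9, its partner Mcm8 was as scarce, with 11 counts in FLExDUX4 and 12 in wild-type and a log2 ratio of 0.40 (-0.93 to 1.70). Of 22 genes of the MCM family and of replication licensing, 16 could be compared, 11 of them higher (6 with spike-in scaling) and 5 lower, with a median of 0.21 that turned negative under that scaling. Mcm4, a subunit of the replicative helicase, was the only one at least 1.5-fold higher (13.2% of all genes compared were), with 73 and 54 counts at 0.95 (0.42 to 1.49), followed by Orc3, of the origin recognition complex, at 0.47 (0.20 to 0.74). Orc2 at -0.39 (-0.78 to -0.02) and Mcmbp, which binds the MCM complex and had the most counts (237 and 421), at -0.31 (-0.55 to -0.08) were the lowest with at least 60 summed counts. Mcm9 was thus one of many replication genes with few counts in adult muscle.

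**Figure D5:**
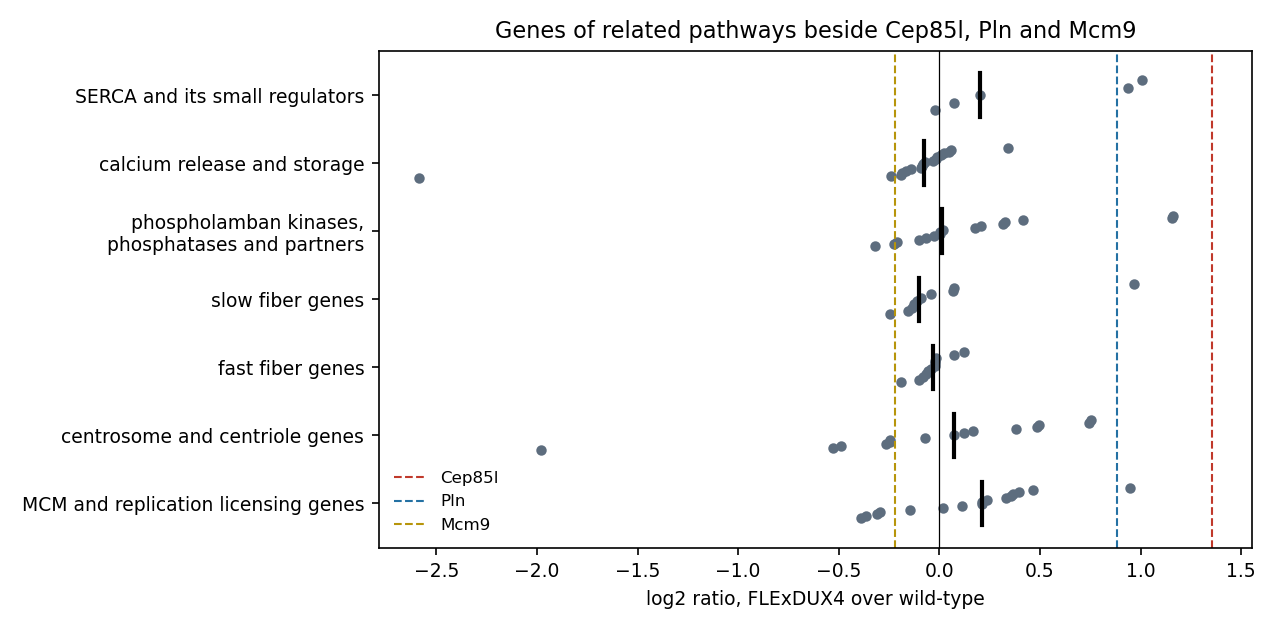
The log2 ratio of FLExDUX4 over wild-type (horizontal axis) for the compared genes of 7 related lists, 1 point per gene, with a black bar at the median of each list and dashed lines at Cep85l, Pln and Mcm9. No point reaches the line of Cep85l at 1.36, and the list medians lie between -0.10 and 0.21, all below 0 with spike-in scaling.

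Finally, the genes whose ratio was nearest to that of Cep85l, among those within 2 times its summed count, were Chac1, Csrp3, Dbp, Cfd and Rgcc. Chac1, an enzyme that breaks down glutathione, had 1521 counts in FLExDUX4 and 1001 in wild-type, a log2 ratio of 1.12 (1.004 to 1.24). The distance of their log2 ratios from that of Cep85l was 0.237 for Chac1, 0.388 for Csrp3, 0.435 for Dbp, a transcription factor of the circadian clock, 0.481 for Cfd, the adipocyte protein adipsin, and 0.539 for Rgcc. No gene of this count range had a higher ratio than Cep85l, so these were simply the next highest ratios. The interval of Cep85l began at 1.243, above the end of all 5 intervals, the closest being that of Chac1 at 1.2365. These distances rest on 2 group totals only. Foxo1, at 1.51, and Zbtb16, with 807 and 546 counts at 1.08 (0.92 to 1.24), were also close in ratio but had just under the lowest summed count admitted, 1357.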

How the data were processed

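QuantSeq 3′ mRNA-seq was run on muscle of 3 FLExDUX4 and 3 wild-type mice. Per the labels, the submitters' processing notes list cutadapt 1.16, FastQC 0.11.7, STAR 2.5.3a, featureCounts 1.6.2 of Subread and DESeq2, and the builds GRCm38 and GRCh38. The authors deposited raw counts summed over each genotype, which were used here. Their table also holds a mean normalized count, a fold change with its error, a test statistic and p-values, none of which was used, and 6 columns of single libraries, left out of every step because no label carries their names.

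Spike-ins (99 features, 220016 and 259913 counts) were left out of the totals. TMM factors came from edgeR 4.0.16 under R 4.3.3, computed on the 13396 genes that filterByExpr kept. Log2 ratios used a pseudocount of 0.5 and Clopper-Pearson intervals, CPM used exact Poisson intervals, and odds used exact conditional intervals (Python 3.11.15, scipy 1.17.1), all at 95%. Each total sums 3 mice, so intervals cover counting error only. Reads carried no molecular identifiers, so copies of one molecule could be counted more than once and intervals may be too narrow. A total of at most 3 counts was treated as too low to compare with another such total. The edgeR test planned for single mice was not run. Scripts were tested on simulated data.

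The genes and the lists were chosen with earlier results of these data known. Genes named were Cep85l, Pln and Mcm9, neighbors within 1 Mb with at least 10 counts in either total, and in each list the 2 highest and 2 lowest with at least 60 summed counts, the most abundant gene and direct partners. The 5 genes nearest in ratio to Cep85l were named too. Odds against the neighbors, Cep85, Atp2a2 and Sln, and other genes named outside this rule (Foxo1, Zbtb16, Mrln, Ryr3, the scarcer heart and smooth muscle markers, and genes at 0 in Cep85l), were chosen after their values were seen. Strit1 of the pump list was not found by symbol. A heart marker of the list is not reported here. Annotation was GENCODE M21 on GRCm38, with promoters from RefSeq (GRCm38.p6). The 3 genes matched both by symbol, and noncoding neighbors listed under clone names in the table carry their M21 symbols here. Alternatives were other scalings, filters, pseudocounts, windows and folds.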

Additional observations from a re-analysis of the deposited data

How the results depend on the processing

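No paired analysis was possible because only sums over a genotype were analysed. For the same reason, leaving out each replicate, a replicate block and a DESeq2 test were not run. Of 159 alternative values over 20 results, 136 stayed within the spread set for them, 23 moved and 0 reversed a called direction. Only Cep85l and Pln had a called direction that could reverse. List medians that changed sign under spike-in scaling were counted as moved or as unchanged. The odds between Cep85l, Pln and Mcm9 had no alternative. Mcm9 had no value with at least 10 counts in each total. With spike-in totals, Cep85l was at 1.08, and the genes higher in FLExDUX4 were 1 of 12 neighbors, 2 of 5 pump regulators, 1 of 18 calcium release genes, 5 of 16 kinases and partners, 1 of 10 slow fiber genes, 0 of 12 fast fiber genes, 5 of 15 centrosome genes and 6 of 16 MCM genes. Medians under it were -0.074 for pump regulators, -0.35 for calcium release, -0.26 for kinases and partners, -0.38 for slow fiber and -0.31 for fast fiber genes. Scaling to total counts left 3 of 18 calcium release genes higher. The fast fiber median was -0.061 with total counts, -0.047 with the upper quartile and -0.046 with at least 10 counts in each total. A window of 500 kb held 7 compared neighbors, 2 of them higher. The share of genes at least 1.5-fold higher, 13.2% over all, was 0.644%, 24.2% and 34.4% among genes with counts within 2 times those of Cep85l, Pln and Mcm9, and 5.99% of all genes were at least 2-fold higher. Depth limits Pln and Mcm9, whose intervals span more than the ratios of most abundant genes.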
